A study of Canis lupus familiaris with 51 samples.

Results

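A small set of genes was almost silent in most of 51 canine hemangiosarcomas and clearly expressed in a minority of the spleen tumours. The genes were chosen from the deposited FPKM table (a fragment count corrected for transcript length and library total). A gene was taken when its median over the 51 tumours was under 1 FPKM and when it reached 10 FPKM in at least 5 of the 32 tumours with the tissue label spleen. Of 16382 genes, 5234 had a median under 1 FPKM, and 41 of these met the whole rule. The spleen values therefore chose the genes, and their spleen levels are given as a description, without a test. Below, a gene is called on in a tumour when it reached 10 FPKM there.

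All samples are labelled as hemangiosarcoma, and none is labelled as normal tissue. The spleen tumours came from 5 intact and 11 neutered females and from 7 intact and 9 neutered males, aged 3 to 13.6 years, of which 20 were Golden Retrievers. The 11 heart tumours came from 3 females and 8 males (5 intact, 6 neutered, 6 Golden Retrievers, aged 5.9 to 11.2 years), and the 3 liver tumours from an intact Portuguese Water Dog, a neutered Golden Retriever and a neutered Wolf Mix, all female, aged 9.6 to 10.9 years. Another 5 labels have 1 tumour each: metastatic tumor, undetermined histogenic origin, cutaneous, and an abdominal mass with and without the word metastatic. The tumour of undetermined origin came from an intact female Golden Retriever aged 0.7 years, against at least 3 years for every other dog. The metastatic tumour came from a neutered female Golden Retriever (11.3 years), the cutaneous one from a neutered female Bichon Frise (10.7 years), the metastatic abdominal mass from a neutered female Lab/Husky Mix (9 years) and the other abdominal mass from an intact male Boxer (8.7 years). No treatment of the dogs is given in the labels. Tumours are numbered within each label in the order of the samples, and the numbers pair nothing.

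Canine hemangiosarcoma is a cancer that forms irregular blood-filled vessels, and the spleen is one of its common primary sites. The spleen filters blood in its red pulp and holds lymphoid tissue, with B and T lymphocytes, in its white pulp. In dogs it can also form blood cells outside the bone marrow. A piece of splenic tumour can hold tumour cells, blood and remaining spleen in any proportion. In such bulk samples fewer cells of a type and less RNA per cell cannot be told apart. Genes carry Ensembl identifiers without symbols in the files. None could be given a symbol, since 0 of 16382 identifiers occur in the RefSeq gene table used (assembly UU_Cfam_GSD_1.0). The functions of the 41 genes are therefore not stated, no cell type could be checked by its markers, and no sequence is shown.

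The edge of the choice was not sharp. The lowest fifth-highest spleen value among the 41 genes was 10.7 FPKM, and the highest among sparse genes left out was 9.77 FPKM. A further 20 sparse genes were on in exactly 4 spleens. The highest median among the 41 was 0.999 FPKM, and 9 genes that were on in at least 5 spleens were left out with medians from 1 to 1.1 FPKM. Of the 41 genes, 13 were on in exactly 5 spleens.

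Most of the 41 genes were carried together by a subset of spleens. At least 10 of the 41 were on in 13 of the 32 spleens, at most 4 were on in each of the other 19, and 0 spleens had from 5 to 9. The largest numbers were 34 genes in spleen 18, 33 in spleen 29 and 32 in spleen 7. Spleen 30 had 26, spleen 11 had 24, spleen 19 had 23 and spleen 25 had 21. Lower numbers were seen in spleen 21 (19 genes), spleen 27 (18), spleens 23 and 28 (15 each) and spleens 10 and 24 (10 each). The 13 spleens held 280 of the 308 spleen values at or above 10 FPKM, which is 90.9%. Of the other 19 spleens, 4 had 0 genes on. The share of all 5234 sparse genes, the 41 included, that reached 10 FPKM had a spleen median of 0.401%. It was highest in spleen 27, at 3.65%, followed by spleens 17 (3.04%) and 20 (2.04%), and it lay between 0.287% and 1.07% in the 12 other spleens with at least 10 genes on. Outside spleen it was 5.75% in the metastatic tumour and 5.35% in the tumour of undetermined origin. The part of that share in the counts of genes on was not tested.

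**Figure D1:**
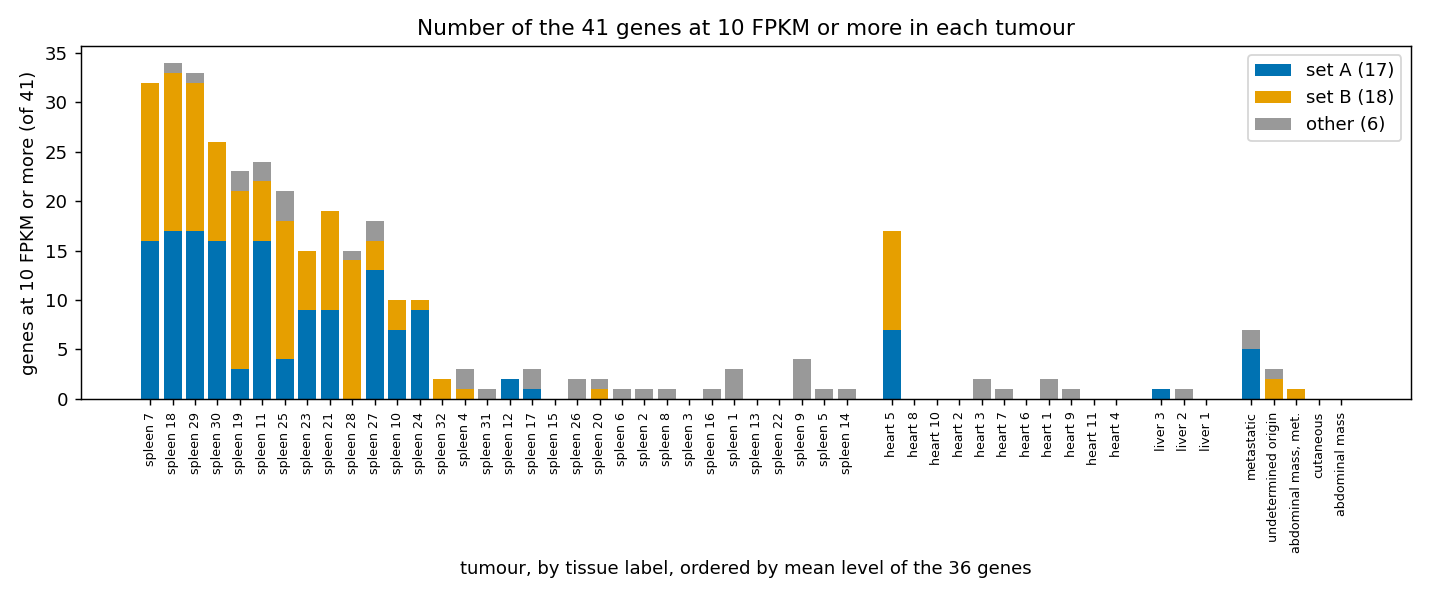
Number of the 41 genes at 10 FPKM or more (vertical axis) in each of 51 tumours (horizontal axis), grouped by tissue label and ordered by the mean level of the 36 genes that vary together; colours show the 17 genes of set A, the 18 of set B and the 6 others. The 13 spleens at the left have 10 to 34 genes on, and heart 5, with 17, is the only heart above 2.

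Relative sequencing depth, solved from the spacing of low FPKM values, ran from 0.527 to 2.14 over the 32 spleens and from 0.527 to 1.59 in the 13 spleens. Spleen 7, with 32 genes on, had the lowest depth, and spleen 13, with 0, had the highest. Spleen 18, with the most genes on (34), had the highest depth of the 13, at 1.59. The median depth was 0.935 in the 13 spleens and 0.977 in the other 19. Spleen 27 had an FPKM sum of 1057712, against a spleen median of 509704. The part of depth in the counts of genes on was not tested.

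Of the 41 genes, 36 formed 1 group by their correlation over the 32 spleens (average linkage on log2(FPKM + 1), joined at a correlation of at least 0.5). The mean correlation over its 630 gene pairs was 0.75 in spleen, with pairs from 0.04 to 0.99. These values describe genes grouped by the same libraries. The mean stayed between 0.74 and 0.77 when any 1 spleen was left out, and it was 0.49 over the 19 spleens that had 4 or fewer genes on. For 241 sparse genes that were on in 2 to 4 spleens the mean correlation was 0.30 over the 32 spleens and 0.30 over those 19. These 241 genes were not grouped by correlation, whereas the 36 were. A higher mean in the group therefore follows from how it was made and is no test. Within the 36 genes the highest spleen value of a gene ranged from 17.2 to 219 FPKM, with a median of 54.6, while its spleen median ranged from 0.33 to 6.09 FPKM.

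The median level of the 36 genes shows how wide the range between tumours was. It was 32.8 FPKM in spleen 7, 27.8 in spleen 18, 24.9 in spleen 30 and 24.4 in spleen 29. It was 16.4 in spleen 19, 12.5 in spleen 21, 12.4 in spleen 11 and 10.1 in spleen 25. Spleens 23, 27, 28, 10 and 24 had medians of 8.66, 7.90, 5.85, 5.66 and 4.18 FPKM. The 19 other spleens lay between 0.014 and 3.08 FPKM, and spleen 32 (3.08) came next below spleen 24, so the median levels did not show the gap that the counts of genes on show. Spleens 7, 18 and 29 together had 28 of the 36 genes on, and adding spleen 30 left 22. Every one of the 36 genes was on in at least 1 of these 4 spleens. The share of the 36 genes in the summed FPKM was highest in spleen 7, at 0.359%, and its spleen median was 0.0196%.

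**Figure D2:**
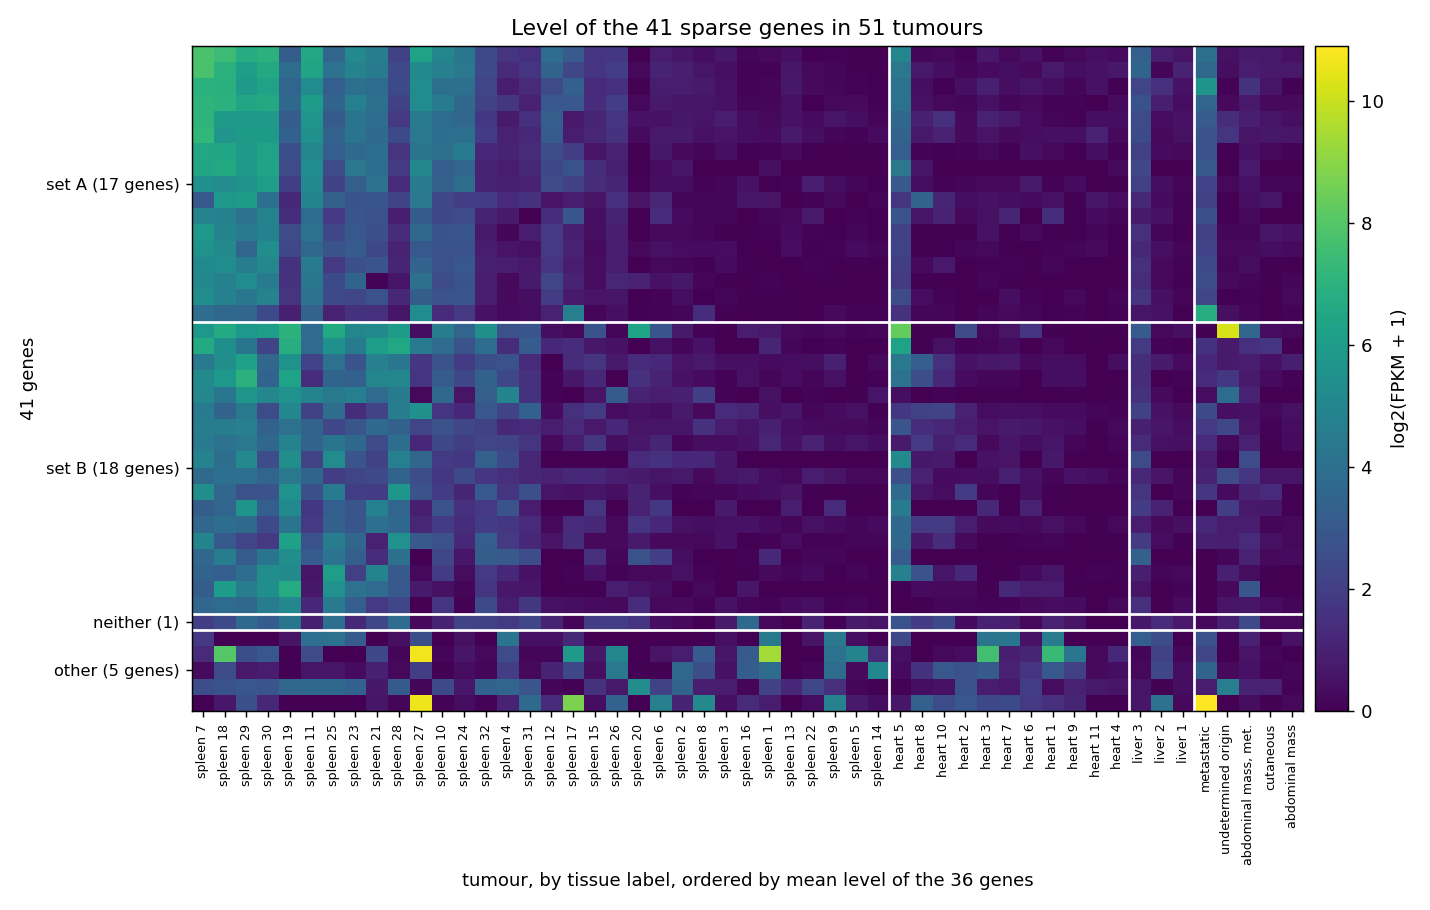
Level of the 41 genes (rows, grouped into set A, set B, 1 gene in neither set and the 5 genes outside the group) in 51 tumours (columns, by tissue label and ordered by the mean level of the 36 genes), as log2(FPKM + 1) by colour. Spleens 7, 18, 29 and 30 are bright across both sets, spleens 19, 25 and 28 mainly in set B, and spleens 11 and 27 mainly in set A.

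Within the 36 genes the tumours carried the genes in different proportions. At a joining correlation of 0.7, a value chosen after the data were seen, the group divided into 17 genes (set A), 18 genes (set B) and ENSCAFG00000001380, which fell in neither. The mean pairwise correlation over the 32 spleens was 0.94 within set A, 0.83 within set B and 0.66 between the sets. Over the 19 spleens with 4 or fewer genes on it was 0.76 within set A, 0.70 within set B and 0.29 between them. A joining correlation of 0.75 gave the same 17 and 18 genes. At 0.8 set A kept 16 of its genes together while set B broke into 13 and 5, and at 0.85 set B broke into 5 pieces. With rank correlations the group did not divide at 0.7, since 35 of the 36 genes stayed in 1 group. Both sets are therefore a way to describe the tumours, and the choice of 0.7 enters every value given for them.

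Set A was highest in spleens 7, 18, 29 and 30. Its median level there was 55.01, 49.8, 56.4 and 58.3 FPKM, and 16, 17, 17 and 16 of its 17 genes were on. Spleens 11 and 27 followed with 30.8 and 19.2 FPKM and 16 and 13 genes on. In these 6 spleens set A stood above set B, and 10 of its 17 genes had their highest spleen value in spleen 7. The set A genes kept similar proportions to each other, which follows in part from joining them by correlation over these same spleens. Across the 17 genes, which are not independent replicates, the log2 levels of 2 of the 13 spleens correlated at 0.37 to 0.93, with a median of 0.78 over 78 pairs of spleens.

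ENSCAFG00000011638, picked after its values were seen because it was on in the most spleens of any set A gene (13), shows this pattern. It measured 219 FPKM in spleen 7, 123 in spleen 18, 98.2 in spleen 30, 82.5 in spleen 11 and 66.1 in spleen 29. In spleens 27, 23, 10, 21 and 24 it measured 35.4, 28.7, 25.7, 20.9 and 19.2 FPKM. Spleens 25 and 19 had 16.2 and 13.3 FPKM. It was also on in spleen 12 (10.02 FPKM), which is not among the 13 spleens with at least 10 genes on, and it was not on in spleen 28 (4.22 FPKM), which is among them. Outside spleen it was on in heart 5 (19.05 FPKM), liver 3 (10.4 FPKM) and the metastatic tumour (11.5 FPKM).

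Set B was highest in spleen 19, where 18 of its 18 genes were on at a median of 40.995 FPKM while 3 set A genes were on at a median of 4.70 FPKM. Spleens 7, 29, 25, 28 and 18 had set B medians of 21.1, 19.6, 18.9, 16.9 and 15.3 FPKM. In spleen 28, 14 set B genes and 0 set A genes were on. Spleen 27 was the reverse, with 13 set A genes and 3 set B genes on, at medians of 19.2 and 1.73 FPKM. The difference in mean log2 level, set B minus set A, was -2.57 in spleen 27 and 3.04 in spleen 19, the extremes of the 13. It was above 0 in 4 of the 13 spleens (19, 28, 25 and 21) and below 0 in 9. Across the 18 genes, the log2 levels of 2 of the 13 spleens correlated at -0.75 to 0.90, with a median of 0.33. Set B genes thus kept their proportions less closely than set A genes did in these spleens. Both sets were joined by correlation over the same spleens, so this difference is no separate result, and it was not tested.

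**Figure D3:**
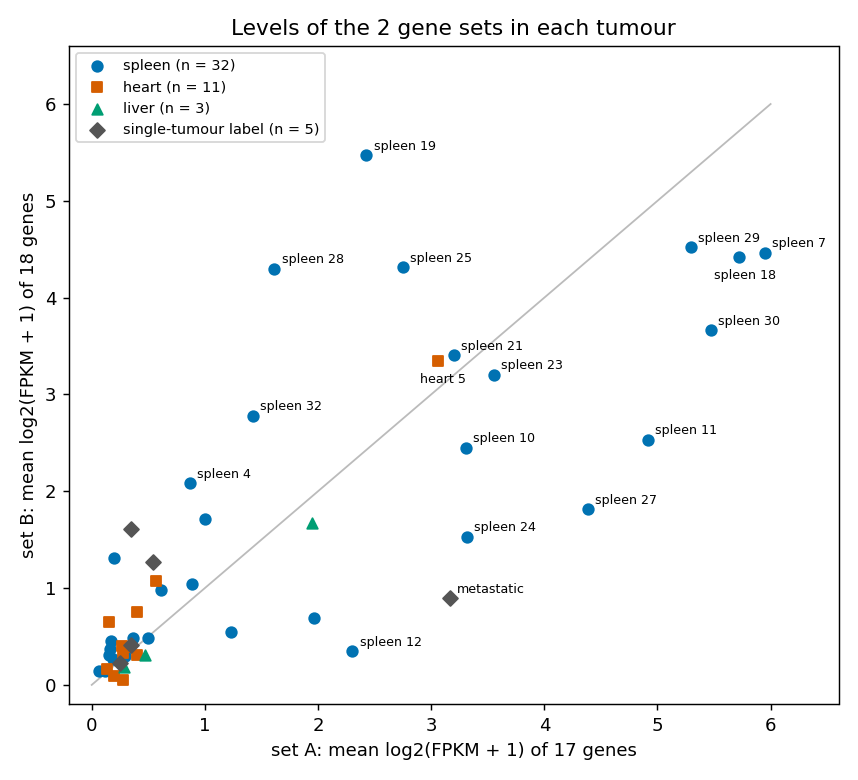
Mean log2(FPKM + 1) of the 17 set A genes (horizontal axis) against that of the 18 set B genes (vertical axis), with 1 point per tumour and the line of equality; colours and shapes give the tissue label, and tumours above 2 on either axis are named. Spleens 19, 28 and 25 lie above the line, spleens 11, 27 and 24 lie below it, and heart 5 lies beside spleen 21.

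The gene on in the most spleens of all 41 was ENSCAFG00000008386, a set B gene with 10 FPKM or more in 14 spleens. Over the 32 spleens its lowest, median and highest values were 0, 6.09 and 129 FPKM. The highest were 129 FPKM in spleen 19, 100.3 in spleen 18, 97.0 in spleen 25 and 79.3 in spleen 20. Spleen 20 is outside the 13 spleens, and this gene was among the 2 that were on there. In spleen 27, which carried 13 set A genes, it measured 0.334 FPKM.

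Its highest values in the series were outside spleen. The tumour of undetermined origin had 1218 FPKM and heart 5 had 319 FPKM, both above every spleen. The 11 hearts had a lowest, median and highest value of 0, 0.05 and 319 FPKM, and the metastatic abdominal mass had 10.6 FPKM. In the tumour of undetermined origin 2 of the 36 genes were on, beside 5.35% of all sparse genes.

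The same 36 genes were low in nearly all hearts, which did not enter the requirement of 10 FPKM but did enter the median. Heart 5, from an intact male Golden Retriever aged 9.1 years, had 17 of the 36 genes on, 7 from set A and 10 from set B, at a median of 8.34 FPKM over the 36. Of all sparse genes 0.65% were on in heart 5, against 0.115% to 0.535% in the other hearts. In the 10 other hearts 0 of the 36 were on, the highest value was 9.72 FPKM, and the median over the 36 genes was at most 0.46 FPKM. Heart 5 was the highest heart for 31 of the 36 genes. Its relative depth, 0.8885, lay inside the range of 0.850 to 1.49 of the other hearts.

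How closely the 36 genes varied together in hearts depended mostly on heart 5. The mean pairwise correlation of the 36 genes was 0.67 over 11 hearts and 0.16 without heart 5, against 0.66 to 0.72 when any other heart was left out. With Spearman's rank correlation it was 0.34 over the 11 hearts. Without heart 5, 1 set B gene had no spread between hearts and gave no correlation. The values for set A were 0.87 with all hearts and 0.13 without heart 5, and for set B 0.53 and 0.26. For the 241 genes on in 2 to 4 spleens the heart values were 0.11 and 0.14. The mean levels of sets A and B correlated with each other at 0.97 over 11 hearts and at 0.68 without heart 5. Of the 17 genes on in heart 5, between 8 and 16 were also on in each of the 13 spleens, with 16 in spleen 7, 15 in spleens 18 and 29, and 14 in spleen 21. Spleens 7, 18, 29 and 21 had 32, 33, 33 and 19 of the 36 genes on in all. The overlaps have to be read against those counts and were not tested. Across the 36 genes, log2 levels in heart 5 correlated with those of the 13 spleens at 0.10 (spleen 30) to 0.56 (spleen 21), and at 0.41 with spleen 7.

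ENSCAFG00000014924, a set B gene singled out after its values were seen, was at 0 FPKM in heart 5. It reached 104 FPKM in spleen 19, 63.1 in spleen 18 and 44.3 in spleen 25, and was on in 7 spleens. Its highest heart value was 1.31 FPKM, and that was in heart 7. Its correlation with the mean of the other genes of the group was 0.82 over the 32 spleens and -0.25 over the 11 hearts.

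Few of the genes were on in livers and in the labels with 1 tumour, though set A was raised in the metastatic tumour. Among livers, liver 3 had 1 of the 36 genes on and a median of 2.07 FPKM over the 36, while livers 1 and 2 had 0 on and medians of 0.124 and 0.259 FPKM. The metastatic tumour had 5 of the 36 on, all 5 from set A, at set A and set B medians of 5.75 and 1.01 FPKM, and 5.75% of all sparse genes reached 10 FPKM there. The metastatic abdominal mass had 1 of the 36 on, and the cutaneous tumour and the other abdominal mass had 0. In the metastatic tumour 0 of the 17 set A genes were under 1 FPKM. The mean log2 level of set A there, 3.16, lay between those of spleens 25 (2.75) and 21 (3.20), both among the 13. The highest set A value there was that of ENSCAFG00000014311, chosen after its values were seen, at 110.1 FPKM, and the next was 48.2 FPKM. ENSCAFG00000014311 measured 37.9 FPKM in spleen 27 and 24.7 in spleen 17, against 14.05 in spleen 7. It was the 1 set A gene on in spleen 17.

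The 5 genes outside the group are named here because there are few of them. Of their 28 spleen values at or above 10 FPKM, 8 were in the 13 spleens and 20 in the others. ENSCAFG00000008126 had the highest single spleen value of the 41 genes, 1617 FPKM in spleen 27. It measured 661 FPKM in spleen 1, 261 in spleen 18, 57.9 in spleen 17, 30.99 in spleen 26, 28.7 in spleen 5 and 15.96 in spleen 9, and its spleen median was 1.15 FPKM. It was also on in hearts 3, 1 and 9, at 192, 164 and 18.7 FPKM, with a heart median of 0.91 FPKM. Of its 7 spleens, 18 and 27 also carried the group, while spleens 1, 5, 9 and 26 had 0 of the 36 genes on. Its correlation with the mean of the 36 genes over the 32 spleens was 0.03.

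ENSCAFG00000017675 shared spleens 27 and 17 with it, at 1575 and 430 FPKM, and was higher still in the metastatic tumour at 1910 FPKM. It was on in 6 spleens and in liver 2 (16.3 FPKM) and in 0 hearts. ENSCAFG00000009570 was on in 5 spleens, with its highest value of 33.3 FPKM in spleen 14, which had 0 of the 36 genes on. Outside spleen it was on in the metastatic tumour, at 10.55 FPKM. Its correlation with the mean of the 36 was -0.36. ENSCAFG00000000320 was on in 5 spleens and 3 hearts, at most at 20.4 FPKM in spleen 1 and 23.9 FPKM in heart 1. ENSCAFG00000011251 lay closest to the group, with a correlation of 0.40 with the mean of the 36 and of 0.78 with its nearest gene among them. It was highest in spleen 20, at 39.2 FPKM, followed by the tumour of undetermined origin at 23.97 FPKM, and was on in 0 hearts.

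Genes outside the 41 moved with the group as well, many of them expressed in most tumours. Over the 32 spleens, 941 of 12604 other genes with at least 1 FPKM in 3 spleens correlated at 0.6 or more with the mean log2 level of the 36 genes, and 368 at -0.6 or less. The range was -0.88 to 0.95 and the median over all was -0.02. Of the 941 genes, 748 had a median of at least 1 FPKM over the 51 tumours and 356 of at least 10 FPKM. There were 125 genes at 0.8 or more with set A and 234 with set B, and 16 were in both lists, which is 12.8% of the first list and 6.84% of the second. That overlap depends on the limit of 0.8, since only 19 of the 125 were under 0.6 with set B and only 66 of the 234 were under 0.6 with set A. Most genes of either list thus correlated at 0.6 or more with both sets, and the difference between the lists was not tested.

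In the 10 hearts without heart 5, followers of set B had a median correlation of 0.79 with the set B level, against 0.02 for all 12604 genes. For followers of set A the median correlation with the set A level was 0.25 against 0.02. The set B level was near the floor in these hearts, with medians over its genes of 0 to 0.63 FPKM. The mean pairwise correlation among the set B genes themselves was 0.26 there. These correlations share libraries and depth, and they are given as a description.

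Labels of the dogs did not enter the choice of the genes, so sex, neuter status, breed, age and sample title were tested over the 32 spleens with limma on log2(FPKM + 1) of 12645 genes. After Benjamini-Hochberg adjustment 0 of the 41 genes and 0 of the 12645 (0%) were called in each of the 5 comparisons at an adjusted p under 0.05. All 41 genes passed the filter of 1 FPKM in at least 3 spleens, as the rule for choosing them ensures. What follows gives the values by label. Since the genes vary together, counts of genes by sign or at an unadjusted p are not counts of separate signals.

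Female and male spleens overlapped across most of the range. At least 10 of the 41 genes were on in 9 of 16 female and 4 of 16 male spleens. The mean log2 level of the 36 genes had a lowest, median and highest value of 0.29, 3.00 and 5.10 in females and 0.12, 1.13 and 4.98 in males. Male minus female log2 fold changes were negative for 36 of the 36 genes, with a median of -1.05 against -0.01 over all 12645 genes. At an unadjusted p under 0.05, 15 of the 41 genes were lower in males, against 5.27% of all genes, and 0 were higher, against 2.87% (8.14% in either direction). Of the 15, 14 were in set B and 0 in set A. Whether the sets differ in this was not tested. The smallest unadjusted p among the 41 was that of ENSCAFG00000014924, with a log2 fold change of -2.02 ± 0.64 (SE) and a limma adjusted p of 0.59.

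Neutered and intact dogs also overlapped. At least 10 genes were on in 11 of 20 neutered and 2 of 12 intact spleens, and the medians of the mean log2 level were 2.60 and 0.64. The 2 intact dogs were the females of spleens 7 and 30. Among 7 intact males the highest number on was 3, although heart 5 came from an intact male. Neutered minus intact fold changes were positive for 36 of the 36 genes, with a median of 1.09 against 0.01 over all genes. At an unadjusted p under 0.05, 7 of the 41 genes were higher in neutered dogs, against 3.01% of all genes, and 0 were lower, against 3.43% (6.45% in either direction). The smallest limma adjusted p among the 41 was 0.75. This count was 26 without spleen 7 or without spleen 30 and as low as 2 without spleen 5, 13, 14 or 22. It was 3 or 4 without spleen 1, 2, 18, 19, 25, 26, 28 or 29 and 12 or 13 without spleen 3, 8, 9 or 16.

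Golden Retrievers had at least 10 genes on in 6 of 20 spleens and other breeds in 7 of 12. The mean log2 level of the 36 genes had medians of 1.14 and 2.60, within ranges of 0.12 to 5.10 and 0.15 to 4.51. An unadjusted p under 0.05 was found for 0 of the 41 genes, against 2.06% of all genes (0.894% higher and 1.16% lower in Golden Retrievers). The median fold change of the 36 was -0.49 on the log2 scale, against 0.0035 over all genes. All 3 spleens from German Shepherd Dogs carried 10 or more genes (23, 19 and 10 in spleens 19, 21 and 10), at mean log2 levels of 2.81 to 3.999. Those levels lie inside the range of the Golden Retrievers.

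Slopes on age were above 0 for 36 of the 36 genes. Their median was 0.24 on the log2 scale per year, against 0.0035 over all genes. At an unadjusted p under 0.05, 3 of the 41 were higher at greater age, against 6% of all genes, and 0 were lower, against 5% (11% in either direction). The smallest limma adjusted p among the 41 was 0.45. The count of 3 was 0 without spleen 5, 7, 8, 10, 13, 18, 20, 21, 29, 30 or 31 and 1 without spleen 17 or 27. It was 5, 9, 11, 14 and 15 without spleen 4, 3, 9, 11 and 22. Counts over all genes in these fits are not given here.

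**Figure D4:**
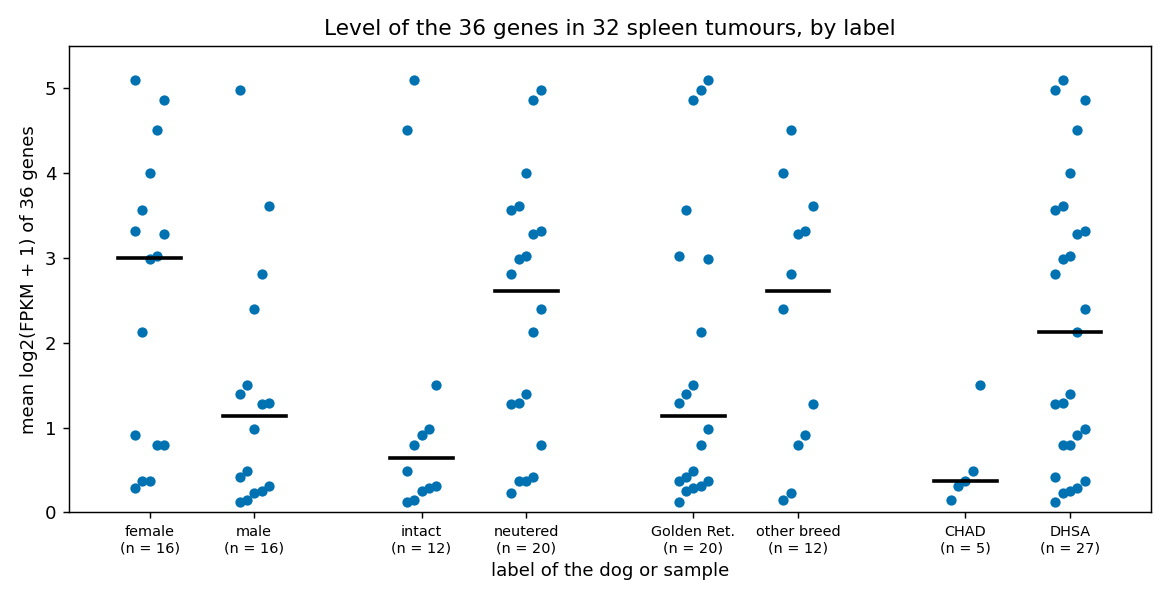
Mean log2(FPKM + 1) of the 36 genes (vertical axis) in each of the 32 spleen tumours by sex, neuter status, breed class and title prefix (horizontal axis); points are tumours and bars are medians. High and low tumours occur under every label except the 5 CHAD titles, all of which lie at or below 1.504.

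Sample titles begin with CHAD or DHSA, and no label explains these prefixes. Spleens with CHAD titles had at most 3 genes on, and their mean log2 level ran from 0.15 to 1.504, against 0.12 to 5.10 in the 27 DHSA spleens. CHAD minus DHSA fold changes were negative for 36 of the 36 genes, with a median of -1.55 against -0.01 over all genes. At an unadjusted p under 0.05, 18 of the 41 genes were lower in CHAD, against 2.51% of all genes, and 0 were higher, against 1.54% (4.05% in either direction). Of the 18, 15 were in set A and 3 in set B, and the smallest limma adjusted p was 0.96. The count of 18 fell to 2, 5, 5 and 3 without spleen 1, 2, 3 or 5, all of them CHAD. Counts over all genes in these fits are not given here. Of the 5 CHAD spleens 4 came from intact dogs and 4 from males, so title, neuter status and sex overlap. Within the 27 DHSA spleens 14 of the 41 genes had an unadjusted p under 0.05 for sex, against 844 of all genes tested. The counts were 1 for neuter status, 0 for breed class and 8 for age, without a count over all genes beside them. In each of these fits limma called 0 of the 41. CHAD spleens were too few for the same comparisons.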

How the data were processed

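RNA of 51 tumours was sequenced by the authors from TruSeq libraries of total RNA, per the labels' protocols. The authors deposited 1 table of FPKM values. The build CanFam3.1 and the tools TopHat 1.4.1, Cuffdiff and FastQC 0.11.2 are named, per the submitters' processing notes. For annotation, strand settings, filters and scaling between libraries the sources used here give nothing. Fragment counts are not known, so no counting interval was computed. Relative depth was solved from the value of 1 fragment in 1864 low genes, with 99.9% of library pairs within 0.05 on the log2 scale.

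The genes, lists and tests were chosen with earlier results of these data known. Groups follow the tissue labels. Levels were analysed as log2(FPKM + 1), with a pseudocount of 1, so fold changes of low genes are understated. The test across all genes with 1 FPKM or more in 3 or more spleens was limma 3.58.1 under R 4.3.3 (mean trend, Benjamini-Hochberg over all genes, two-sided, adjusted p under 0.05), 1 label at a time and without covariates. The test was tested on simulated data. Grouping used scipy 1.17.1. Whether every tumour is from its own dog is not in the labels, and p-values reflect only the spread among these libraries. The most similar pair of libraries correlated at 0.977, so none was treated as a duplicate.

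Named by rule were the gene on in the most spleens and the gene with the highest spleen value. Other identifiers were chosen after their values were seen. Alternatives were another pseudocount, other filters and scalings, robust fitting, covariates, other limits of the rule and leaving out each spleen. Organs were not tested against each other, because the rule selects genes high in spleen.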

Additional observations from a re-analysis of the deposited data

Results flagged for a closer look

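Within the 5 CHAD spleens, spleen 4 lay apart from the others for the mean log2 level of the 36 genes, at 1.504 against 0.48 in the next and 0.15 in the lowest. The gap was 0.754 of the whole range. ENSCAFG00000008386 was likewise highest in spleen 4 among them, at 2.71 on the log2(FPKM + 1) scale against 0.79 in the next (gap 0.7104 of the range). Both values describe the same tumours and genes chosen by their spleen levels, so they are given as a description, with no test. Gaps above 0.71 of the range were flagged among 4 comparisons looked at, and the second gap only just passed that limit. For normally distributed values a gap of this kind is flagged by chance in about 1 group in 20. That rate need not hold for genes chosen for high values in a subset of spleens.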

How the results depend on the processing

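The number of genes followed the limits of the rule. It was 114 with on set at 5 FPKM, 20 at 20 FPKM, 109 with at least 3 spleens, 15 with at least 8 spleens and 14 with a median under 0.5 FPKM. Of these smaller lists 18, 15 and 13 genes were among the 36. Median-ratio rescaling gave 43 genes, 40 of them shared, and leaving out 1 spleen gave 37 to 46. With on at 20 FPKM, 7 spleens had at least 10 of the 41 genes on instead of 13. The largest group held the same 36 genes with rank correlations, a pseudocount of 0.1 and joining correlations of 0.4 and 0.6. Its mean correlation in spleen was 0.487 without the 13 spleens, and in hearts 0.1597 without heart 5, both chosen after seeing the data. The heart value of 0.67 was 0.34 with rank correlations and 0.59 with a pseudocount of 0.1. In the 5 label comparisons 0 of the 41 genes were called by limma in any alternative, and the smallest adjusted p among them ran from 0.28 to 0.83 for sex, 0.316 to 0.998 for neuter status, 0.28 to 0.64 for age and 0.75 to 1 for title. For breed class it was at least 0.999. When the other dog labels (and for title all 4 of them) entered the fit, 10, 2, 0, 0 and 0 of the 41 had an unadjusted p under 0.05 for sex, neuter status, breed class, age and title. Over all 12645 genes 773 did so for sex and 499 for neuter status. Counts over all genes for breed class, age and title are not given here. No paired analysis was possible because the labels give no replicate numbers that tie samples of different groups together.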
